A study of Homo sapiens with 9 samples.

Results

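The Krüppel-like factors (KLF) are DNA-binding proteins, and 10 of their genes were followed here: KLF2, KLF3, KLF6, KLF7, KLF8, KLF9, KLF10, KLF11, KLF13 and KLF16. They were matched by symbol in the authors' deposited table, all 10 were found, and they are 10 of 60605 gene identifiers. The cells were KG-1a, a human acute myeloid leukaemia line. PRMT2, an arginine methyltransferase gene, had been knocked out in it by CRISPR/Cas9. RNA was sequenced from PRMT2 knockout clone 1 (KO clone 1, 3 libraries), PRMT2 knockout clone 2 (KO clone 2, 3 libraries) and cells with intact PRMT2 (WT, 3 libraries), none of them drug-treated. Each knockout group is 1 clone, so a difference from WT that is seen in one of them cannot be told apart from the clone. Whether a difference shared by both clones comes from PRMT2 loss or from cloning was not tested. The labels give no cloning history for WT and no relation between the clones. The genes were chosen with values of these libraries known. Their levels and fold changes are therefore given as a description, with no p-value.

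KLF proteins share a C-terminal zinc finger domain that binds GC-rich and CACCC-type DNA, and they differ in the N-terminal part that recruits partners. KLF3, KLF8 and KLF12 bind the corepressor CtBP, and KLF9, KLF10, KLF11, KLF13 and KLF16 bind the SIN3 corepressor. KLF2, KLF5, KLF6 and KLF7 mostly activate transcription. In blood cells, family members are known for roles in red cell maturation, lymphocyte quiescence and the stress response of progenitors.

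The 9 libraries held between 28006342 and 43149410 read pairs counted on the strand of the gene, and that strand held 92.0% to 92.3% of the stranded counts. CD34, the progenitor antigen of this line, was at 713 to 755 CPM (counts over the library total scaled for composition, times 1000000) in KO clone 1, 749 to 791 CPM in KO clone 2 and 612 to 640 CPM in WT. PRMT2 itself was at 20.7 ± 0.544 CPM in KO clone 1, 21.2 ± 0.153 CPM in KO clone 2 and 39.4 ± 0.393 CPM in WT (SD, n = 3 each). KO clone 1 replicate 1 stood apart, with 13.3% of its pairs mapped to several places, while the remaining 8 libraries had 3.86% to 4.51%. It is named below where a KLF result turns on it.

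KLF3 RNA was nearly lost from both clones, and KLF8 and KLF11 RNA from KO clone 2. KLF9 was lower in both clones by a smaller amount. The 4 most abundant members, KLF13, KLF16, KLF10 and KLF6, kept levels within 136% of WT at the highest and 79.3% at the lowest. KLF2 and KLF7 were low in all libraries. A gene was called at an adjusted p under 0.05 where it also differed by 1 or more, in either direction, on the log2 scale. For the mean of both clones, the p-value holds the spread within groups and not the spread between the clones. Of the 10 members, 9 passed the filter on low counts and KLF7 did not. In KO clone 1 against WT, 1 member (KLF3) met the rule, where 7.58% of 20655 genes tested did. In KO clone 2 against WT, 3 members did (KLF3, KLF8 and KLF11), where 5.96% of genes did. In the mean of both clones the same 3 members did, with 6.53% of genes called. Between KO clone 2 and KO clone 1, KLF8 and KLF11 did, with 2.82% of genes called. Because the members were picked with such values known, nothing is read from these counts.

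**Figure D1:**
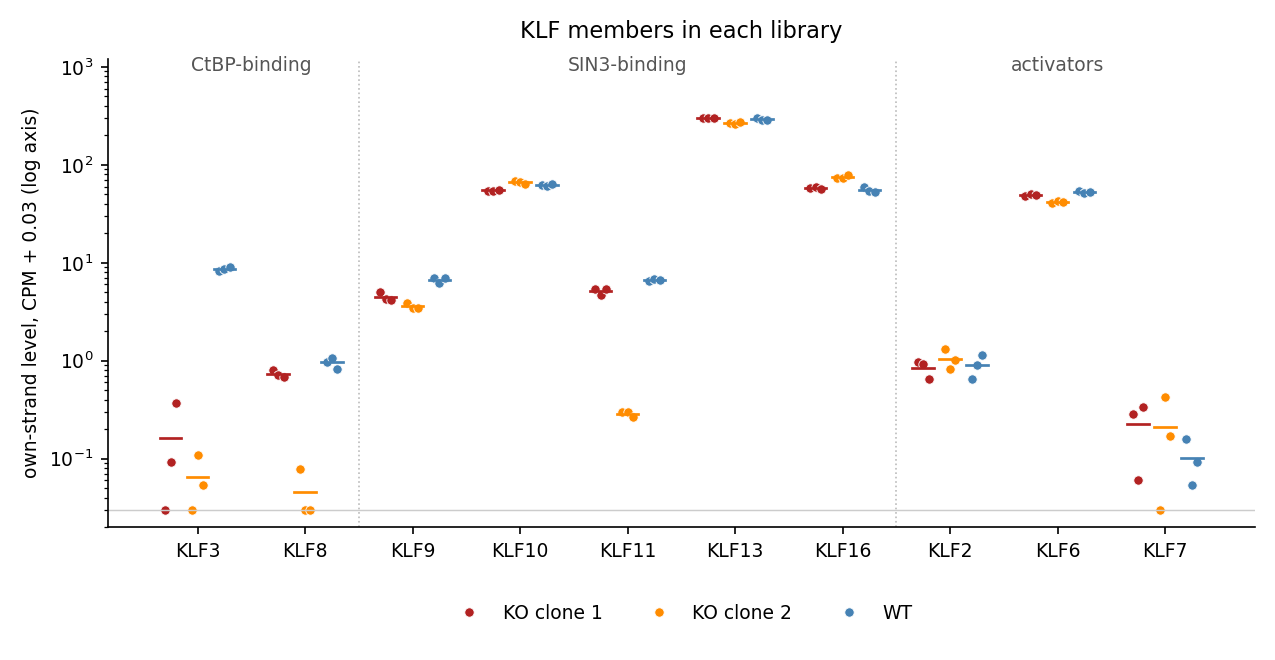
Own-strand level of the 10 KLF members in each library, as CPM + 0.03 on a log axis, with a bar at the group mean; genes are grouped by the partner their proteins bind. KLF3 lies at 0 to 0.338 CPM in the 6 knockout libraries and at 8.27 to 8.94 CPM in WT, while KLF8 and KLF11 are near the bottom in KO clone 2 only.

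KLF3 (ENSG00000109787, GRCh38 chromosome 4, 38664197 to 38701517, plus strand) encodes a repressor that binds CACCC boxes and recruits CtBP, and in mice it acts in red cell and B cell maturation. Its own-strand counts were 0, 2 and 11 in the 3 libraries of KO clone 1 and 0, 3 and 1 in those of KO clone 2, against 317, 349 and 290 in WT. No knockout library came near a WT library. The level was 0.133 ± 0.180 CPM in KO clone 1 and 0.0345 ± 0.0412 CPM in KO clone 2, against 8.57 ± 0.338 CPM in WT (SD, n = 3 each). That is 1.65% of WT in KO clone 1 (95% exact interval 0.876% to 2.84%) and 0.385% in KO clone 2 (0.105% to 0.989%). These intervals come from counts summed over the 3 libraries of a group, so they leave out the spread between libraries. PCR copies of a molecule could not be removed, so the intervals may be too narrow even for the counting error. In bulk RNA, fewer cells with KLF3 RNA and less of it per cell cannot be told apart.

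The fitted log2 fold change of KLF3 was -5.89 in KO clone 1 and -7.88 in KO clone 2. The value in KO clone 1 rests on replicate 3, which held 11 of the 13 counts of that clone: without it the log2 fold change was -7.85. The value in KO clone 2 rests on 4 counts, 3 of them in replicate 2: it was -9.12 without that library and between -9.12 and -7.21 over all alternatives. The clones differed by -1.99 (SE 0.910), their libraries overlapped, and without KO clone 1 replicate 3 the difference was -0.03. Which clone held less KLF3 RNA was therefore not detectable at this depth. A floor of 3 counts is 0.0695 to 0.107 CPM, and 5 of the 6 knockout libraries were at or below 3 counts.

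KLF8 (ENSG00000102349, chromosome X, 56232356 to 56291531, plus strand) encodes another CtBP-binding repressor, which in mice is itself repressed by KLF3. Its counts were 21, 22 and 21 in KO clone 1 and 2, 0 and 0 in KO clone 2, against 36, 43 and 26 in WT. KO clone 2 stood apart from both other groups, and the KO clone 1 libraries lay below all WT libraries in CPM by a small margin. The level was 0.699 ± 0.0636 CPM in KO clone 1 and 0.0162 ± 0.0280 CPM in KO clone 2, against 0.929 ± 0.124 CPM in WT. KO clone 1 was at 74.0% of WT with a 95% interval of 53.3% to 102%, which includes WT. KO clone 2 was at 1.75% of WT (0.210% to 6.49%) and at 2.37% of KO clone 1 (0.281% to 8.92%). The log2 fold change was -0.42 (SE 0.317) in KO clone 1 and -5.56 (SE 0.581) in KO clone 2. The value in KO clone 2 moved to -8.06 without its replicate 1, the one library with counts, and to -5.02 without its replicate 3.

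The window around the RefSeq start of KLF8 that coincides with the annotated gene start is shown because KLF8 and KLF11 RNA were both nearly absent from KO clone 2. RefSeq lists 4 such windows for KLF8, and the gene counts do not say which start was in use. It lies at chrX:56232106-56232405 (GRCh38.p14, plus strand), from 250 bases before to 50 after the start. Capitals mark matches, on either strand, to 2 motifs that KLF proteins are known to bind. The first was searched with the letters GGGCGG and is called the GC box here. The other is written CCACCC and is called the CACCC-type box.
KLF8: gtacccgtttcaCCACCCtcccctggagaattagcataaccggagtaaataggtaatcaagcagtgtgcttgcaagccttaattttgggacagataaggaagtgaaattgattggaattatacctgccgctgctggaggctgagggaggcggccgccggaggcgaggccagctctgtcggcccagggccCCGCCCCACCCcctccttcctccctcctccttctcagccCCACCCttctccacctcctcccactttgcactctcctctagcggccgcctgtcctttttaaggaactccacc
It held 1 GC box and 3 CACCC-type boxes, and the GC box overlaps one of these. Of 35116 RefSeq windows of this length, 45.0% held the GC box letters and 34.3% those of the other motif. A match describes the letters and is not evidence that a factor binds there.

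KLF12 (ENSG00000118922, chromosome 13, 73686089 to 74134404), the third CtBP-binding repressor, was not among the 10 and can be tested. It fell in both clones: the level was 9.60 ± 0.288 CPM in KO clone 1 and 16.9 ± 1.22 CPM in KO clone 2, against 23.6 ± 1.03 CPM in WT. The log2 fold change was -1.30 in KO clone 1 (SE 0.074, adjusted p = 1.95e-18) and -0.48 in KO clone 2 (SE 0.068, adjusted p = 2.08e-07). KLF12 RNA was higher in KO clone 2 than in KO clone 1 by 0.82 (SE 0.076, adjusted p = 1.71e-11). In each clone the 3 KLF genes of the CtBP-binding subgroup thus lay below WT, with KLF8 in KO clone 1 inside its counting error. This was not particular to the subgroup. KLF5, KLF6, KLF9 and KLF11 also lay below WT in both clones, and KLF2, KLF10, KLF13 and KLF16 did not.

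**Figure D2:**
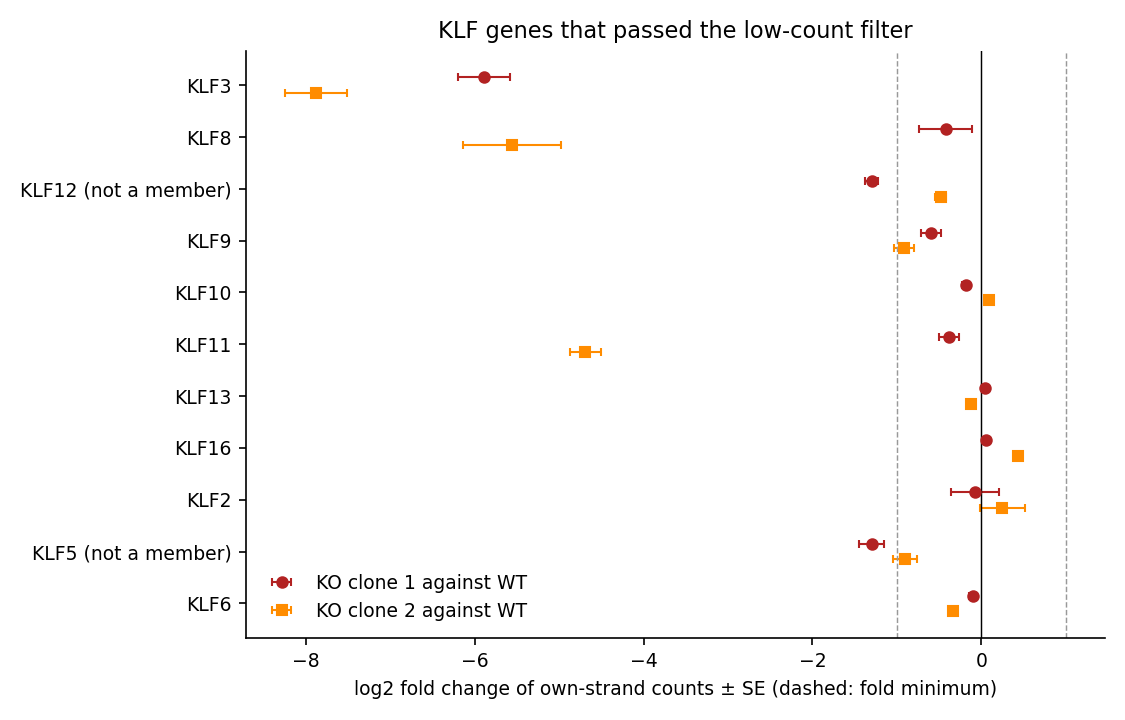
Log2 fold change of own-strand counts, with SE, against WT in KO clone 1 (circles) and KO clone 2 (squares) for the 9 members that passed the filter and for KLF5 and KLF12, which are not members; dashed lines mark the fold minimum. KLF3 lies at -5.89 and -7.88, KLF11 at -0.38 and -4.69 and KLF8 at -0.42 and -5.56 in KO clone 1 and KO clone 2, and the other members lie inside the dashed lines.

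KLF11 (ENSG00000172059, chromosome 2, 10042849 to 10054836, plus strand) encodes a SIN3-binding repressor that TGF-beta induces. It had 147, 150 and 175 counts in KO clone 1 and 11, 10 and 10 in KO clone 2, against 251, 278 and 217 in WT. Each clone lay apart from the other and from WT. The level was 5.14 ± 0.415 CPM in KO clone 1 and 0.256 ± 0.0190 CPM in KO clone 2, against 6.67 ± 0.116 CPM in WT. KO clone 1 was at 76.8% of WT (95% interval 68.3% to 86.3%), while KO clone 2 was at 3.82% of WT (2.58% to 5.48%) and 4.98% of KO clone 1 (3.35% to 7.17%). The log2 fold change was -0.38 (SE 0.118) in KO clone 1 and -4.69 (SE 0.185) in KO clone 2. Unlike KLF3 and KLF8 in the clones where they were low, KLF11 kept a count of at least 10 in every library.

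For KLF11 the RefSeq window nearest the annotated gene start is shown, the nearer of 2, with the same motifs in capitals. It lies at chr2:10043579-10043878 (GRCh38.p14, plus strand), and its start is 980 bases downstream of that of the gene in GENCODE release 44.
KLF11: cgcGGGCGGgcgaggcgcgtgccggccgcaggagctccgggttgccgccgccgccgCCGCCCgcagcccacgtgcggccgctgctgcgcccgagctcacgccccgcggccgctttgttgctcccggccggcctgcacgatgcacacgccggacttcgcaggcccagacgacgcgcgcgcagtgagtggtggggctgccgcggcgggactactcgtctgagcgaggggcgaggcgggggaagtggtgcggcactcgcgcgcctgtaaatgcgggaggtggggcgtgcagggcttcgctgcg
It held 2 GC boxes and 0 CACCC-type boxes, with a GC content of 77.3%, against 58.0% in the KLF8 window. The median of all windows was 58.7%, so the 2 windows shown differ in base composition and in these motifs. They also differ in place, with the KLF8 window at the annotated gene start and the KLF11 window inside the gene. Of the 10 members, 8 have a window in the RefSeq table, and KLF3 and KLF10 have none.

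KLF9 (ENSG00000119138, chromosome 9, 70384604 to 70414657, minus strand), a repressor induced by thyroid hormone and glucocorticoids, lay below WT in each clone. It was at 5.01, 4.22 and 4.14 CPM in KO clone 1 and 3.88, 3.39 and 3.39 CPM in KO clone 2, against 6.99, 6.22 and 6.90 CPM in WT. The 6 knockout libraries all lay below the 3 WT libraries, and the KO clone 2 libraries lay below those of KO clone 1. The log2 fold change was -0.59 (SE 0.119) in KO clone 1 and -0.91 (SE 0.118) in KO clone 2, just short of the fold minimum in KO clone 2.

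KLF10 (ENSG00000155090, chromosome 8, 102648784 to 102655725), the TGF-beta inducible early gene closest to KLF11, did not follow it. It was at 54.2, 54.4 and 55.8 CPM in KO clone 1 and 68.1, 67.4 and 63.2 CPM in KO clone 2, against 62.5, 61.3 and 63.4 CPM in WT. KO clone 1 lay below WT at -0.19 (SE 0.041) on the log2 scale, while KO clone 2 overlapped WT at 0.09 (SE 0.040).

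KLF13 (ENSG00000169926, chromosome 15, 31326835 to 31435665), known from T lymphocytes as an activator of the chemokine gene CCL5, had the most counts of the members. It was at 301, 299 and 298 CPM in KO clone 1 and 269, 262 and 271 CPM in KO clone 2, against 297, 285 and 289 CPM in WT. KO clone 1 lay above WT by 0.04 (SE 0.033) and KO clone 2 below it by a log2 fold change of -0.12 (SE 0.033).

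KLF16 (ENSG00000129911, chromosome 19, 1852399 to 1863579, minus strand), a SIN3-binding repressor first known from dopamine receptor genes, had the highest mean log2 fold change of the 9 fitted members. It was at 57.6, 59.5 and 56.3 CPM in KO clone 1 and 72.9, 73.8 and 78.7 CPM in KO clone 2, against 58.9, 54.0 and 53.2 CPM in WT. Only KO clone 2 stood apart, with a log2 fold change of 0.44 (SE 0.043), while KO clone 1 overlapped WT at 0.06 (SE 0.044).

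KLF6 (ENSG00000067082, chromosome 10, 3775996 to 3785281), an injury-induced activator, was at 47.9, 49.9 and 48.6 CPM in KO clone 1 and 41.0, 42.2 and 41.7 CPM in KO clone 2, against 53.4, 51.0 and 53.1 CPM in WT. The order WT, KO clone 1, KO clone 2 held without overlap. The log2 fold change was -0.10 (SE 0.043) in KO clone 1 and -0.33 (SE 0.043) in KO clone 2, small beside those of KLF3, KLF8 and KLF11.

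KLF2 (ENSG00000127528, chromosome 19, 16324826 to 16328685), the factor that holds T cells in quiescence, had few counts. They were 26, 29 and 20 in KO clone 1 and 53, 30 and 42 in KO clone 2, against 24, 36 and 36 in WT. The groups overlapped, and KO clone 1 was at 94.8% of WT (95% interval 69.1% to 130%) and KO clone 2 at 120% (91.1% to 158%). The sign in KO clone 1 depends on the processing: the log2 fold change was -0.08 (SE 0.285) with own-strand counts, 0.07 with unstranded counts, and between -0.27 and 0.11 over all settings.

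KLF7 (ENSG00000118263, chromosome 2, 207074137 to 207173856), an activator known from neurons, had 7, 1 and 10 counts in KO clone 1 and 0, 15 and 6 in KO clone 2, against 5, 1 and 2 in WT. Its libraries overlapped between all groups, and it was not fitted. The summed counts put KO clone 1 at 273% of WT (95% interval 113% to 726%) and KO clone 2 at 242% (103% to 631%), intervals that leave out the spread between libraries, which was as large as the difference.

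Over the members, the libraries of the 2 groups did not overlap for 7 of 9 in KO clone 1 against WT, where 44.5% of genes tested did not. The same number was reached in KO clone 2 against WT, with 40.5% of genes, and between KO clone 2 and KO clone 1, with 37.7%. For 5 of 9, all lower, no knockout library of either clone overlapped WT, where 24.9% of genes did so in either direction. These 5 were KLF3, KLF6, KLF8, KLF9 and KLF11.

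The order of the members by abundance changed below the top 4. Levels of different genes are compared as CPM per kilobase of exon. KLF13, KLF16, KLF10 and KLF6 led in that order in all groups, at 31.7, 19.5, 14.3 and 7.95 CPM per kilobase in KO clone 1, 28.4, 25.3, 17.3 and 6.78 in KO clone 2, and 30.8, 18.7, 16.3 and 8.55 in WT. In KO clone 1 they were followed by KLF11 (1.12), KLF9 (0.857), KLF2 (0.291), KLF8 (0.0549), KLF7 (0.0206) and KLF3 (0.0197). In KO clone 2 the order was KLF9 (0.683), KLF2 (0.363), KLF11 (0.0557), KLF7 (0.0187), KLF3 (0.0051) and KLF8 (0.0013). In WT it was KLF11 (1.45), KLF9 (1.29), KLF3 (1.27), KLF2 (0.309), KLF8 (0.0730) and KLF7 (0.0075 CPM per kilobase). Neighbours in these orders whose libraries overlapped were KLF7 and KLF3 in KO clone 1, KLF7, KLF3 and KLF8 in KO clone 2, and KLF9 and KLF3 in WT. KLF3 was thus seventh by level in WT and at or near the bottom in both clones.

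Counting by strand or without regard to it gave the same picture for the large differences. Own-strand counts were about equal to unstranded counts for KLF6, KLF10 and KLF13. For KLF16 they were 131% of the unstranded counts in KO clone 1, 132% in KO clone 2 and 134% in WT. Exons at the 3' end of KLF16 share 483 bases with the unnamed long non-coding RNA ENSG00000267125 on the other strand, which itself had at most 2 counts in a library. For KLF11 they were 112% in KO clone 1, 100% in KO clone 2 and 110% in WT, and it shares 416 exon bases with ENSG00000271787, which had 0 counts in all 9 libraries. For KLF3 they were 109% in WT, from 956 own-strand and 874 unstranded counts. For KLF2 and KLF9 they were lower than the unstranded counts, at 85.2% and 93.6% in KO clone 1, 91.9% and 96.9% in KO clone 2, and 95.05% and 98.3% in WT.

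**Figure D3:**
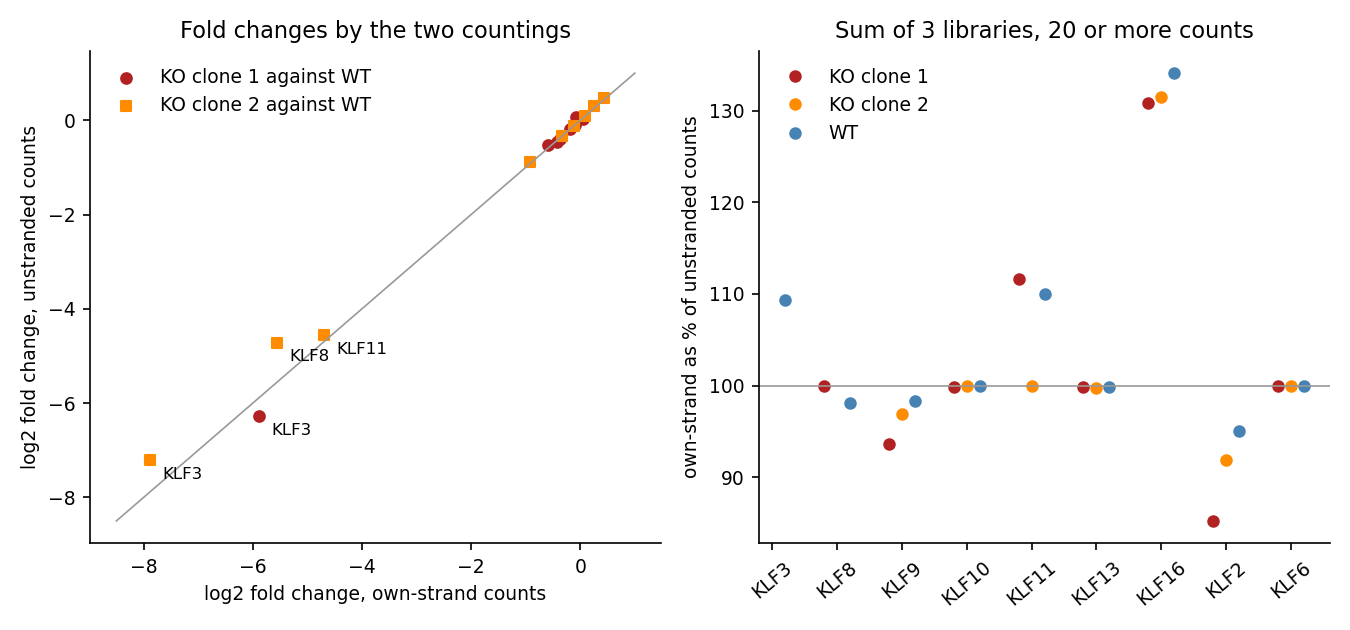
Left, log2 fold change against WT by own-strand counts (horizontal) and unstranded counts (vertical) for the 9 fitted members in each clone, with the line of equality; right, own-strand counts as a percent of unstranded counts, summed over the 3 libraries of a group, where the unstranded sum was 20 or more. The points lie close to the line, with KLF8 in KO clone 2 at -5.56 against -4.72, and KLF16 lies above 130% in all 3 groups.

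With unstranded counts, the log2 fold change of KLF3 was -6.28 in KO clone 1 and -7.21 in KO clone 2. That of KLF11 in KO clone 2 was -4.55 and that of KLF8 was -4.72, from 4 unstranded counts in place of 2. KLF16 was at 0.46 in KO clone 2 by that counting. In the authors' deposited table, which pools the clones, KLF3 was at -6.80 and marked Down, while KLF8 at -1.38 and KLF11 at -1.32 were marked as not significant. In that table KLF9 was at -0.70 and KLF16 at 0.30, neither marked as significant.

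KLF3-AS1 (ENSG00000231160), an antisense RNA that shares 265 exon bases with KLF3 and starts 729 bases from its start, had 0, 0 and 0 counts in KO clone 1 and 0, 0 and 2 in KO clone 2, against 20, 5 and 23 in WT. It did not pass the filter and was not tested, but none of the knockout libraries reached the lowest WT library. The processed pseudogene KLF3P1 (ENSG00000253218, chromosome 5, 172254418 to 172255439) is a copy of KLF3 and lies inside UBTD2 on the same strand, so its reads cannot be told apart from those of UBTD2. It was at 4.92 ± 0.468 CPM in KO clone 1 and 5.58 ± 0.413 CPM in KO clone 2, against 4.64 ± 0.324 CPM in WT, and the 2 clones together differed from WT by 0.18 on the log2 scale (SE 0.103, adjusted p = 0.200). Other pseudogenes of the members, and the remaining genes opposite to them, were low: KLF8P1 summed to 15 counts in KO clone 1 and 29 in KO clone 2, against 22 in WT. ENSG00000283959, opposite to KLF10, was at -0.13 in the mean of both clones (adjusted p = 0.855). KLF2-DT and MYOSLID summed to 11 and 12 counts in KO clone 1, 3 and 7 in KO clone 2, and 6 and 17 in WT.

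Most tested protein-coding genes around the 3 members with large differences, chosen after their values were seen, did not share them. Within 1 Mb of KLF3, 14 other protein-coding genes were tested, with log2 fold changes of -2.03 to 0.68 in KO clone 1 and -1.24 to 0.22 in KO clone 2 and medians of -0.04 and -0.10. Only TLR10, an innate immune receptor gene, was called, at -2.03 in KO clone 1 (adjusted p = 5.16e-06) and -1.24 in KO clone 2 (adjusted p = 0.000828). It was at 0.271 CPM in KO clone 1 and 0.472 CPM in KO clone 2, against 1.11 CPM in WT. Around KLF11, 13 genes lay between -0.33 and 0.84 in KO clone 2 with 0 called, including RRM2, the ribonucleotide reductase subunit, at -0.0031 (adjusted p = 0.959). GRHL1, an epithelial transcription factor gene, fell in KO clone 1, at -1.10 (adjusted p = 0.000223), and was at -0.26 in KO clone 2 (adjusted p = 0.386). Around KLF8, 6 genes lay between -0.40 and 0.23 in KO clone 2 with 0 called. Of all genes tested, 7.58% were called in KO clone 1 against WT and 5.96% in KO clone 2 against WT.

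**Figure D4:**
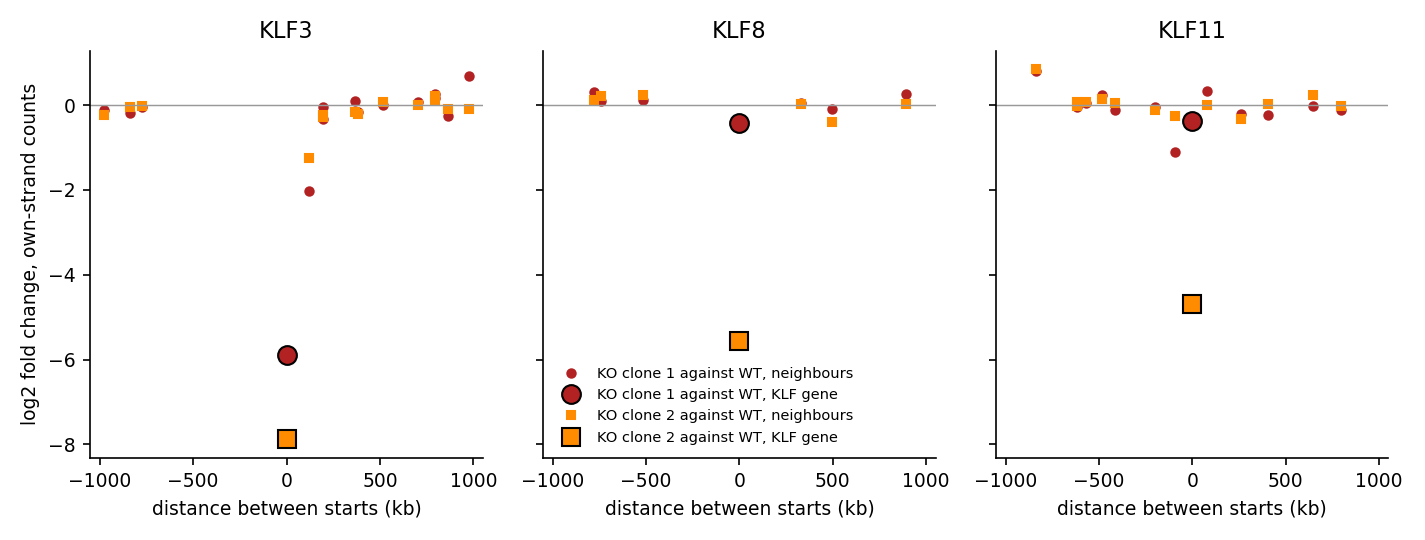
Log2 fold change against WT of protein-coding genes that start within 1 Mb of the start of KLF3, KLF8 and KLF11, by distance in kilobases towards higher coordinates, in KO clone 1 (circles) and KO clone 2 (squares); the large outlined symbols at 0 are the KLF genes. The neighbours lie between -2.03 and 0.84, far above the points of KLF3 in both clones and of KLF8 and KLF11 in KO clone 2.

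Among the 8 other family members, only KLF5 and KLF12 passed the filter on low counts. KLF5 (ENSG00000102554, chromosome 13, 73054976 to 73077541), an activator of proliferation in epithelia, fell in both clones to 2.12 ± 0.368 CPM in KO clone 1 and 2.77 ± 0.303 CPM in KO clone 2, against 5.17 ± 0.568 CPM in WT. Its log2 fold change was -1.30 in KO clone 1 (SE 0.151, adjusted p = 1.90e-09) and -0.91 in KO clone 2 (SE 0.138, adjusted p = 1.08e-06). KLF4, the pluripotency and monocyte factor, and KLF15 had 0 own-strand counts in all 9 libraries. KLF1, the red cell factor, had at most 1 count in a library, as had KLF14 and KLF18, and KLF17 had at most 4. Of the 9 related SP factors, which bind the same GC boxes, 5 passed the filter and 0 were called by edgeR in the mean of both clones. None of the 5 passed an adjusted p under 0.05 there, where 35.3% of all genes did. The smallest was that of SP1, at -0.05 (adjusted p = 0.202). In KO clone 2 against KO clone 1, 2 were lower and 0 higher at that threshold, and 0 were called. They were SP2 at -0.21 (adjusted p = 0.000778) and SP3 at -0.09 (adjusted p = 0.0317).

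By likeness over the 9 libraries, measured as the root mean square difference in log2 CPM centred on the WT mean, the genes closest to KLF3 were NEURL1B, CADPS2, SLC16A10, SLC30A4 and CIDEB, at 0.80 to 0.84. NEURL1B, a ubiquitin ligase gene, was at 0.182 CPM in KO clone 1 and 0.173 CPM in KO clone 2, against 12.6 CPM in WT. The genes closest to KLF16 were ENSG00000228444, ENSG00000274425, PIP5K1C, PLK3 and SH3YL1, at 0.06 to 0.08, and PIP5K1C was at 138 CPM in KO clone 1 and 185 CPM in KO clone 2, against 135 CPM in WT.

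The partners of KLF proteins were measured in full and moved little. Of 16 corepressor and coactivator genes, 7 rose and 1 fell at an adjusted p under 0.05 in the mean of both clones, where 3386 rose and 3896 fell of 20655 genes tested (35.3% in all), and 0 passed the fold minimum. Their median log2 fold change was 0.05, against 0.0019 over all genes. CTBP2, a CtBP corepressor gene, rose by 0.19 (adjusted p = 4.50e-06), and FHL3, a coregulator that binds KLF3, rose by 0.26 (adjusted p = 1.63e-09). KAT2B, an acetyltransferase gene, fell by 0.21 (adjusted p = 1.00e-07), from KO clone 2 alone. It was at -0.42 there (adjusted p = 1.66e-13) and at -0.006 in KO clone 1 (adjusted p = 0.920). The genes that act upstream of KLF2, the MEK5, ERK5 and MEF2 pathway with the CCM complex, gave 7 higher and 3 lower of 16 with 0 called and a median of 0.08, where 6.53% of all genes were called. MEF2C, the direct activator of KLF2 and KLF4 transcription, rose by 0.35 (adjusted p = 4.10e-14).

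Some genes known as KLF2 targets were lower although KLF2 RNA overlapped between the groups. Of 9 listed, 5 were tested, of which 3 were lower at an adjusted p under 0.05 and 2 were called, with a median of -0.86. Of all genes tested, 35.3% passed that p in either direction and 6.53% were called. ITGB7, an integrin chain of gut homing, was at 0.765 ± 0.158 CPM in KO clone 1 and 1.44 ± 0.0819 CPM in KO clone 2, against 7.66 ± 0.394 CPM in WT, a mean log2 fold change of -2.87 (adjusted p = 1.06e-22). The chemokine receptor gene CCR7 was at -1.38 (adjusted p = 3.43e-15). IL7R, the interleukin receptor chain of naive lymphocytes, was at -0.86 (adjusted p = 0.000957), and TEK, an angiopoietin receptor gene, at -0.50 (adjusted p = 0.0704). By clone, TEK was at -0.97 in KO clone 1 (adjusted p = 0.00447) and -0.04 in KO clone 2 (adjusted p = 0.929). T and NK cell markers were lower too in sum: the 10 listed summed to 248 to 251 CPM in KO clone 1 and 293 to 310 CPM in KO clone 2, against 514 to 552 CPM in WT. Of these, 7 were tested and 6 were lower at an adjusted p under 0.05 in the mean of both clones. CD7 stayed near WT, at 63.2 CPM in KO clone 1 and 54.2 CPM in KO clone 2, against 59.5 CPM in WT. CD2, CD4 and CD8A were at 0 in KO clone 1 and CD4 in KO clone 2, but they were low in WT as well, at 0.195, 0.0449 and 0.546 CPM. The part of the T and NK cell markers in the result was not tested.

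TGF-beta early response genes, the class to which KLF10 and KLF11 belong, moved in both directions. Of 18 listed, 16 were tested, 7 were higher and 5 lower at an adjusted p under 0.05, and 2 were called in each direction, with a median of 0.05, beside the same 35.3% and 6.53% of all genes. SMAD6, an inhibitory SMAD, fell to 106 ± 2.61 CPM in KO clone 1 and 127 ± 4.60 CPM in KO clone 2, against 392 ± 11.0 CPM in WT, a mean log2 fold change of -1.75 (adjusted p = 1.12e-38). ID2 fell by 1.02 (adjusted p = 2.20e-25), while ID3 rose by 1.09 (adjusted p = 7.99e-09) and PMEPA1, a feedback inhibitor, rose by 1.09 (adjusted p = 7.98e-07). The fall of ID2 differed between the clones, at -1.44 in KO clone 1 and -0.59 in KO clone 2. The calls of ID2 and ID3 lie at the fold minimum, and ID2 was at -0.99 without WT replicate 3 and ID3 at 0.99 without WT replicate 2. With both clones as one group in edgeR, ID2 was at -0.95 (adjusted p = 0.0367). Of 12 glucocorticoid and thyroid hormone response genes, the class of KLF9, 6 were lower and 2 higher, 1 was called and the median was -0.13, again beside 35.3% of all genes at that p and 6.53% called. FKBP5, a glucocorticoid-induced chaperone gene, fell by 0.55 (adjusted p = 1.98e-21) and PER1 rose by 0.87 (adjusted p = 1.46e-12). The rise of PER1 differed between the clones, at 0.41 in KO clone 1 (adjusted p = 0.000298) and 1.34 in KO clone 2 (adjusted p = 6.18e-17). THRA, a thyroid hormone receptor gene, was at -0.81 in KO clone 1 and -0.91 in KO clone 2, a mean of -0.86 (adjusted p = 2.47e-11). ERRFI1 was called lower in KO clone 1, at -1.84 (adjusted p = 4.88e-10), and was at -0.31 in KO clone 2 (adjusted p = 0.154). Its mean over both clones was -1.07 (adjusted p = 2.09e-07), with -0.93 by unstranded counts and -0.84 with both clones as one group (adjusted p = 0.174).

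**Figure D5:**
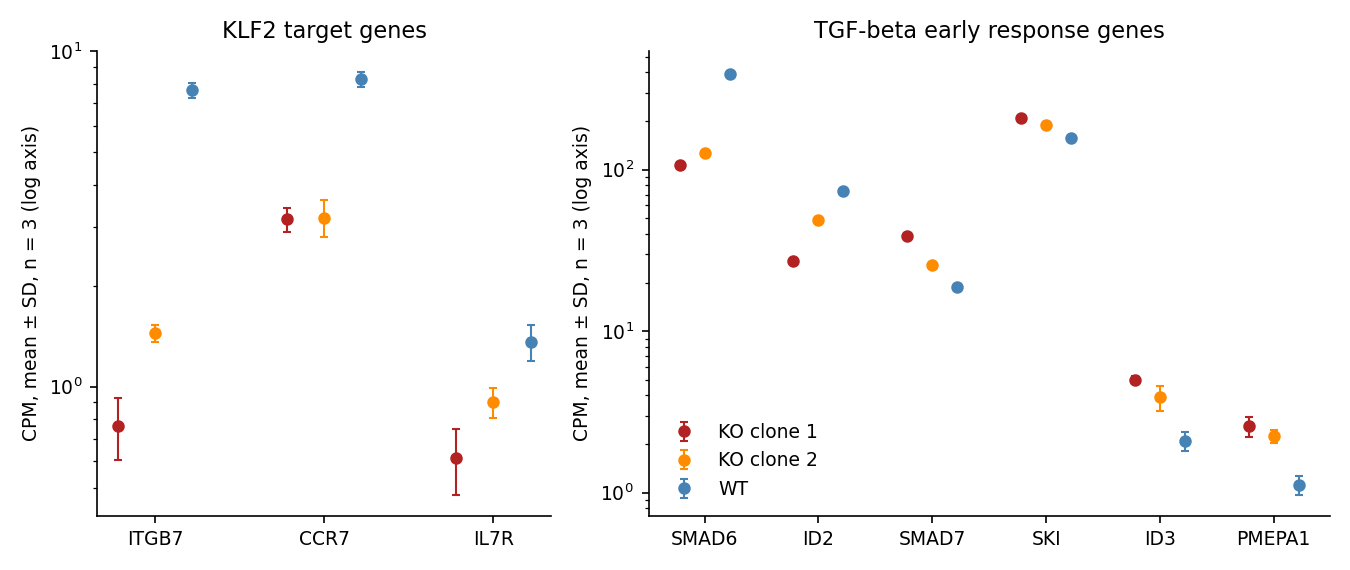
CPM on a log axis, as mean and SD of 3 libraries, of KLF2 target genes (left) and TGF-beta early response genes (right), in KO clone 1, KO clone 2 and WT. ITGB7, CCR7, SMAD6 and ID2 lie lower in each clone than in WT, and ID3 and PMEPA1 lie higher.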

How the data were processed

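Total RNA of 9 libraries was sequenced, 3 each of KO clone 1, KO clone 2 and WT, grouped by the labels. The labels do not say whether replicates were separate cultures, so the p-values may cover technical spread alone. Per the labels' series text, the authors aligned reads to GRCh38 with STAR in 2-pass mode, and STAR and DESeq2 are named in the submitters' processing notes; versions and gene annotation are not given in the sources used here. The authors deposited counts of read pairs per gene, unstranded and for each strand, and a table pooling both clones with raw counts, log2 fold changes, p-values and, as a signal column, counts divided by size factors by the authors, which were not used. Its counts equalled the unstranded counts in 9 of 9 libraries. Pairs mapped to several places are not counted for genes.

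Own-strand counts were fitted in R 4.3.3 with edgeR 4.0.16 by its quasi-likelihood test over all 9 libraries, 1 coefficient per group, with trimmed mean scaling; filterByExpr kept 20655 of 60605 genes. P-values were adjusted by Benjamini-Hochberg over all genes tested, and every adjusted p in the text is from this fit unless another is named. The spread between the clones does not enter the p-values of their mean. SE is the absolute log2 fold change over the square root of F, approximate and poor with few counts. CPM are counts over the scaled total. Exon lengths and positions came from GENCODE release 44, which holds 60463 of the identifiers, and promoter windows from RefSeq on GRCh38.p14. Percent intervals are exact binomial (95%) on counts summed over a group, and leave out the spread between libraries. The fit was checked on simulated counts. Alternatives were unstranded counts, relative log expression factors, DESeq2 1.42.0, no filter, a replicate block, 2-group fits and leaving out each library. The rule for named genes took all members, other KLF and SP genes, up to 4 genes of each list by smallest adjusted p with every called one, opposite-strand partners, and the 5 genes most like the members with the largest rise and fall. The members and lists were chosen with earlier results of these data known. A further gene of the KLF2 target list is not reported here and was left out of its counts.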

Additional observations from a re-analysis of the deposited data

Results flagged for a closer look

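Among the genes named from the lists of KLF partners, upstream genes, targets and response classes, HEG1, ERRFI1 and EGR2 differed between the clones by more than the fold minimum, by the edgeR test of the difference itself. Cell type markers and genes of these lists that the text does not name were left out. HEG1, the CCM complex partner upstream of KLF2, was higher in KO clone 2 than in KO clone 1 by 1.39 on the log2 scale (adjusted p = 5.07e-30), at 153 ± 4.82 CPM in KO clone 2 and 58.1 ± 0.426 CPM in KO clone 1, with 128 ± 2.41 CPM in WT. ERRFI1, a feedback inhibitor of the EGF receptor, was higher in KO clone 2 by 1.53 (adjusted p = 1.51e-07), at 2.25 ± 0.343 CPM in KO clone 2 and 0.783 ± 0.0403 CPM in KO clone 1. EGR2, an immediate early factor, was higher in KO clone 2 by 1.40 (adjusted p = 2.24e-06), at 2.10 ± 0.142 CPM in KO clone 2 and 0.789 ± 0.0876 CPM in KO clone 1. For KLF13, every KO clone 1 library lay above the WT libraries and every KO clone 2 library below them. The difference between the clones was -0.16 on the log2 scale and was not tested.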

How the results depend on the processing

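The numbers of members past the call rule were the same under all 15 alternatives in each clone against WT, 1 for KO clone 1 and 3 for KO clone 2, and between 2 and 3 between the clones, where KLF3 was added without a filter on low counts and without KO clone 1 replicate 1. For the mean of both clones, 14 alternatives gave 3 members called, and both clones as one group of 6, an alternative chosen after seeing the data, gave 1, KLF3. There KLF8 was at -1.51 and KLF11 at -1.37, against -2.99 and -2.53; that fit treats the clones as replicates of each other. Over the leave-one-out fits, the counts were 1523 to 1651 genes for KO clone 1 against WT, 1215 to 1319 for KO clone 2 against WT, 1328 to 1465 for their mean and 554 to 591 between the clones. No called value changed sign. Of values that were not called, KLF2 did in KO clone 1 (-0.27 to 0.11) and in the mean of both clones (-0.11 to 0.28), as did SP2, SP6 and COL1A1 in the mean of both clones, at -0.01, -0.0056 and -0.13 with unstranded counts. JUN kept its direction but missed the fold minimum at -0.99 with unstranded counts, -0.97 without KO clone 1 replicate 1, -0.91 without KO clone 2 replicate 1 and -0.88 without WT replicate 1, and ERRFI1 missed it at -0.93 with unstranded counts and missed both thresholds at -0.84 (adjusted p = 0.174) with both clones as one group, where ID2 was at -0.95. The fit on only the groups of the contrast was not run for the mean of both clones, which needs all 3 groups.

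The replicate block left 1557, 1228, 1349 and 577 genes called, against 1565, 1232, 1349 and 582 without it, and the members called did not differ. Deviations of same-numbered libraries correlated at -0.0137 to 0.0122 across genes, and 0 of 9 libraries correlated best with one of its own number. No effect shared by libraries of the same number was seen. The labels do not say whether such libraries were paired. Depth limits KLF3 in both clones, KLF8 in KO clone 2 and KLF7 in all groups.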

Other observations

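Of 12 immediate early genes tested with edgeR, the class in which KLF6 and KLF10 respond to stimulation, 1 was lower and 1 higher at an adjusted p under 0.05 in the mean of both clones, where 35.3% of all genes tested passed. Their median log2 fold change was -0.05. JUN, which was called lower at -1.01 (adjusted p = 5.98e-07), fell to 3.32 ± 0.375 CPM in KO clone 1 and 3.44 ± 0.934 CPM in KO clone 2, against 6.83 ± 1.14 CPM in WT. EGR3 rose to 3.43 ± 0.421 CPM in KO clone 2 (adjusted p = 1.57e-08), against 1.35 ± 0.106 CPM in WT, and was at 1.80 ± 0.142 CPM in KO clone 1 (adjusted p = 0.0843). EGR2 was called lower in KO clone 1, at -1.08 (adjusted p = 0.000142), and was at 0.32 in KO clone 2 (adjusted p = 0.205).

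Of 18 red cell genes known as KLF1 or KLF3 targets, 4 passed the filter. In the mean of both clones, 2 were higher and 0 lower at an adjusted p under 0.05, beside 35.3% of all genes tested. Of the 4, 1 was called, where 6.53% of all genes were. CD44, the hyaluronan receptor, rose to 888 ± 34.1 CPM in KO clone 1 and 704 ± 18.4 CPM in KO clone 2, against 581 ± 13.0 CPM in WT (adjusted p = 1.97e-14 for the mean of both clones). GATA1, the red cell master regulator, was called higher at 1.40 (adjusted p = 0.00498) from low levels of 0.360 CPM in KO clone 1 and 0.698 CPM in KO clone 2, against 0.186 CPM in WT, and was at 0.99 with unstranded counts. By clone, GATA1 was at 0.92 in KO clone 1 (adjusted p = 0.137) and 1.87 in KO clone 2 (adjusted p = 0.000421). Of 10 ubiquitin ligases and deubiquitinases that act on KLF proteins, 1 was higher and 1 lower, FBXW7 at 0.28 (adjusted p = 1.93e-06) and STUB1 at -0.15 (adjusted p = 0.012), and 0 were called, beside 35.3% of all genes at an adjusted p under 0.05 and 6.53% called. By clone, STUB1 was at -0.26 in KO clone 1 (adjusted p = 0.000337) and -0.05 in KO clone 2 (adjusted p = 0.595).

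Other cell types' markers were low. B cell markers summed to 9.76 to 11.6 CPM in KO clone 1 and 15.8 to 16.2 CPM in KO clone 2, against 15.9 to 16.9 CPM in WT. Monocyte and granulocyte markers summed to 7.15 to 8.16 CPM in KO clone 1 and 8.51 to 9.15 CPM in KO clone 2, against 10.8 to 11.0 CPM in WT. Stroma, endothelium and epithelium markers summed to 6.21 to 7.03 CPM in KO clone 1 and 7.48 to 8.61 CPM in KO clone 2, against 6.97 to 7.38 CPM in WT.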
